A study of Rattus norvegicus with 46 samples.

Results

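The 73 genes described here encode cytosolic ribosomal proteins, measured in the gastrocnemius muscle of paralysed rats. They were chosen by symbol alone: every gene of the array annotation whose symbol is Rpl or Rps followed by a digit, with Rplp0, Rplp1, Rplp2 and Rpsa, leaving out 6 S6 kinase symbols and 1 pseudogene. They are 73 of the 14317 genes with 1 symbol, and all 73 were among the 9289 genes tested. Of them, 45 belong to the large subunit of the ribosome and 27 to the small subunit. The remaining gene, Rps19bp1, matches the symbol rule but encodes a binding partner of Rps19 and no ribosomal subunit.

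The study used 23 female Sprague-Dawley rats. The shortest window, 6 h to 4 d, holds 13 rats. The window of 5 to 8 d holds 4 and that of 9 to 14 d holds 6. All rats were under isoflurane anaesthesia, had their muscles paralysed with the acetylcholine receptor blocker α-cobrotoxin and were mechanically ventilated. In each rat a lever flexed and extended the left ankle passively, 12 h a day (6 h in the shortest experiments), and the opposite leg was left without loading. Total RNA of both legs was measured on 1 Affymetrix array per leg, 46 in all, in 6 groups of leg and duration. The loaded leg was always the left one, so loading and body side cannot be told apart. The 3 duration windows are different rats and each pools several durations, and no untreated rats were used here, so every change with duration is against rats already paralysed for 6 h to 4 d. Both sets of later rats were compared with the same arrays of 6 h to 4 d.

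A ribosome reads messenger RNA with its small subunit and joins amino acids with its large subunit, and its protein components are made in matched amounts. In vertebrates, many messengers for these proteins begin with a C followed by a run of pyrimidines, the terminal oligopyrimidine tract, through which growth signalling by mTOR controls their translation. In skeletal muscle, the amount of ribosomes limits how much protein a fibre can make, and ribosome production is known to change with growth and disuse.

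The start sites of these genes are shown because pyrimidine tracts near them are a property that the symbol rule did not use. RefSeq start sites of the rat build GRCr8 were matched for 62 of the 73 genes, and the sense strand was searched from 15 bases before to 15 bases from the start site for a C followed by at least 4 pyrimidines (C or T). Such a tract was present in 50 of 62 genes (80.6%), in 29 of 37 of the large subunit and in 21 of 24 of the small subunit, against 34.8% of all 33469 promoters of the table. The same search on the opposite strand matched 17.7% of the genes and 40.3% of all promoters. The search takes a tract anywhere in these bases, so a match need not be a terminal tract as defined above. The genes printed are the 8 largest rises at 9 to 14 d in unloaded legs (Rpl3, Rps19, Rps12, Rps21, Rps24, Rpl23, Rpl36 and Rps15a), the longest tract (Rpl34), the pair Rpl22 and Rpl22l1, and the stalk genes Rplp0 and Rplp1. Each is 30 bases long, written 5′ to 3′ on the strand of the gene, with the longest tract in capitals.
Rpl3: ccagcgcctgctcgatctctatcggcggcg
Rps19: cccgacttgtgcgcccgggaaaccccgtcg
Rps12: gcacagaagcccagcagagcgcttaaatac
Rps21: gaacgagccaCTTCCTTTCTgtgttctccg
Rps24: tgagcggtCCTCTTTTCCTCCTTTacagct
Rpl23: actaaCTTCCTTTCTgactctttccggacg
Rpl36: ctgtccggccgccatcggaaagctgcaggt
Rps15a: cggcgttttCTTTCCacagtcaccatggtg
Rpl34: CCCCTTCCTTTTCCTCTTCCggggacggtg
Rpl22: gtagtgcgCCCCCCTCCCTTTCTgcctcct
Rpl22l1: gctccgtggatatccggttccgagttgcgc
Rplp0: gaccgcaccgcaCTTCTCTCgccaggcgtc
Rplp1: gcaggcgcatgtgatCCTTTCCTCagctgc

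The window of Rpl3 lies at chr7:113507976-113508005 on the minus strand, that of Rpl22 at chr5:168117946-168117975 on the plus strand and that of Rpl22l1 at chr2:113683181-113683210 on the plus strand. That of Rps24 lies at chr16:96502-96531 on the plus strand and that of Rpl34 at chr2:221962269-221962298 on the minus strand. The tract of Rpl34, 20 bases, is the longest found. Among the genes printed, the tract of Rplp1 begins at the start site. Those of Rpl23 and Rps15a end before it, outside the messenger of that start, and the other tracts printed cross it. The windows of Rpl3, Rps19, Rps12, Rpl36 and Rpl22l1 hold no match, which says only that these letters are not in this window of the table's start site. At 9 to 14 d against 6 h to 4 d, the median difference in unloaded legs was 0.64 over the 50 genes with a tract and 0.70 over the 12 without, and in loaded legs 0.551 and 0.545. These medians have no test.

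Values below are log2 expression values that the authors made with RMA, a method that equalises the distributions of the arrays, so a difference of 1 is a doubling and each gene is compared only with itself. The array medians ran from 6.07 to 6.20, and the number of arrays limits the precision. The tissue label was checked against defining transcripts of muscle fibres: Acta1, skeletal actin, ranged from 13.69 to 14.33 and Ckm, muscle creatine kinase, from 13.50 to 14.02, both in the top percentile of all genes. Not every fibre marker was this steady. The myosin genes Myh2 (5.40 to 12.98) and Myh7 (5.71 to 13.12) varied widely, with lows under the smallest array median. The other fibre markers stayed at or above 11.18 (Actn3). Rats 35 and 37 of the shortest window had its highest means over these genes. In unloaded legs their mean over the 73 genes was 10.92 and 10.97, against 10.66 to 10.88 in the others and at least 11.29 in the later windows. In loaded legs rat 37 stood at 11.15, the next rat at 10.87 and the later rats at 11.24 or above. By the median of the 73 genes they did not stand out in unloaded legs, at 11.13 and 11.11 against 11.22 in rat 31. In loaded legs rat 37 was also highest by the median, at 11.30, while rat 35 stood at 11.06 and rat 27 at 11.20. Without rats 35 and 37 the counts of called genes given below for 9 to 14 d were 69 higher and 0 lower in unloaded legs (1 lower with them) and 69 higher and 1 lower in loaded legs, and for 5 to 8 d 65 and 62 higher. The shares of all genes called rose without these 2 rats. At 9 to 14 d they went from 45.6% to 51% in unloaded and from 44.2% to 49.3% in loaded legs. At 5 to 8 d they went from 35.9% to 42.4% and from 39% to 45.2%. Each label's description ends in a number whose meaning is not stated. It was taken here for a date, which is an assumption, and is called the date code, with its 5 values numbered 1 to 5. Codes 1, 2 and 4 hold only rats of 6 h to 4 d, code 3 holds rats of all windows (4, 2 and 4), and code 5 holds 2 rats of 5 to 8 d and 2 of 9 to 14 d.

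Ribosomal protein transcripts were higher in the later windows across both subunits and in both legs. In unloaded legs at 9 to 14 d, 68 of 73 genes were higher than at 6 h to 4 d, 1 was lower and 4 were not called (limma, Benjamini-Hochberg adjusted p under 0.05 over all 9289 genes, which is what "called" means throughout). Of all genes tested, 28.7% were called higher and 16.9% lower in that comparison. The median difference of the 73 genes was 0.65, against 0.07 over all genes. The large subunit had 43 of 45 genes higher, 1 lower and a median of 0.64, and the small subunit 25 of 27 higher, none lower and a median of 0.74. The large-subunit median of an array was 11.41 ± 0.08 (SD, n = 13) at 6 h to 4 d, 11.94 ± 0.06 (n = 4) at 5 to 8 d and 12.01 ± 0.09 (n = 6) at 9 to 14 d. The small-subunit median was 10.37 ± 0.09, 11.05 ± 0.15 and 11.24 ± 0.10 on the same arrays. In both subunits each later group lay above the early one, while the later groups overlapped each other. Of the genes called, 48 rose at least 1.5-fold and 13 at least 2-fold. The shares of all genes past these cuts were not counted, and can be at most the 28.7% called higher.

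Loaded legs showed the same count. At 9 to 14 d, 68 of 73 genes were higher and 1 was lower than at 6 h to 4 d, against 29% and 15.2% of all genes. The same 68 genes were higher in both legs. The share of all genes higher in both legs was not counted, and can be at most the 28.7% of unloaded legs. The median difference was 0.57 over the 73 genes, 0.54 over the large subunit and 0.67 over the small one, against 0.08 over all genes. Of the genes called, 30 rose at least 1.5-fold and 4 at least 2-fold, again without a count of all genes past these cuts. The difference was larger in the unloaded than in the loaded leg in 68 of 73 genes, and the tests of that gap are given with the legs below.

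Most of these genes were already higher at 5 to 8 d. In unloaded legs 64 of 73 genes were higher than at 6 h to 4 d and none was lower, against 23.6% of all genes higher and 12.3% lower. The median was 0.54, against 0.05 over all genes. In loaded legs 59 were higher and none was lower, against 26.9% and 12% of all genes, with a median of 0.47 against 0.06. The 9 genes not called in unloaded legs were Rpl13, Rpl22l1, Rplp1, Rpl28, Rpl41, Rps19bp1, Rps27, Rps28 and Rps29. Rps18, a protein of the small-subunit head, was among the 8 largest rises there at 0.92, as were Rps10 at 0.93 and Rps26 at 0.92. In the 4 comparisons with 6 h to 4 d, 57 genes were higher each time. These comparisons share the early rats. The share of all genes higher each time was not counted, and can be at most the 23.6% given above. From 5 to 8 d to 9 to 14 d limma called 0 of the 73 genes in either leg (0.226% of all genes in each). At an unadjusted p under 0.05 there were 14 genes in unloaded and 10 in loaded legs (15.6% and 14.4% of all genes), and array quality weights gave 19 called genes in unloaded legs (17 higher, 2 lower; 26%, near the 23.8% of all genes called with these weights) and none in loaded legs (1.46% of all genes). The medians of that step were 0.10 in unloaded and 0.12 in loaded legs, against -0.01 over all genes in both. They were 0.17 and 0.20 within the rats of date code 3, and 0.03 (45 of 73 genes above 0) and -0.003 (35 of 73) within those of date code 5, which holds 2 rats of each window. In loaded legs the median was 0.07 with each array centred on its median. The smallest adjusted p of that step was that of Rps23, a protein of the decoding centre, at 0.32 in unloaded legs (SE 0.09, limma adjusted p = 0.0808), followed by Rpl11 at 0.31 (adjusted p = 0.0985) and Rps20 at 0.31 (adjusted p = 0.113). Every array of 9 to 14 d was above every array of 5 to 8 d in 4 of the 73 genes in unloaded legs (1.54% of all genes) and in 2 in loaded legs (0.84%).

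**Figure D1:**
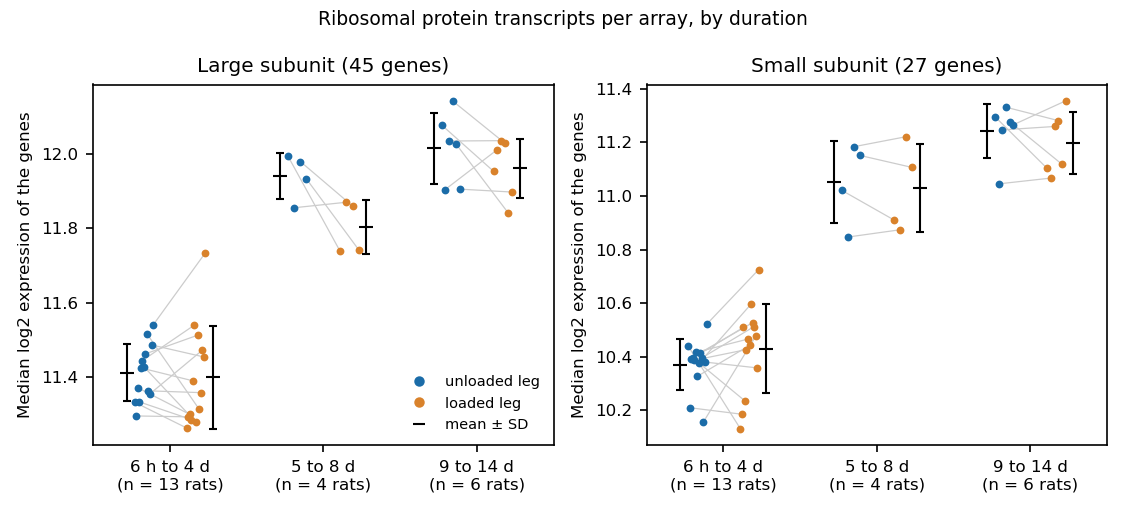
Median log2 expression of the 45 large-subunit genes (left) and the 27 small-subunit genes (right) on each array, by duration window, with unloaded legs in blue and loaded legs in orange. Grey lines join the legs of a rat and black bars give the mean ± SD. In unloaded legs the large-subunit median ran from 11.30 to 11.54 at 6 h to 4 d and from 11.90 to 12.14 at 9 to 14 d.

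The groups of arrays were separate for most of these genes. In unloaded legs, every array of 9 to 14 d was above every array of 6 h to 4 d in 55 of 73 genes (7.35% of all genes), and every array of 5 to 8 d in 54 (5.87%). In loaded legs the counts were 42 (5.29%) and 39 (6.5%). Rat 37 had the highest loaded-leg value of its window in Rpl3, Rps19, Rps12, Rps21 and Rps6.

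The date code runs partly with the window, so values within a code are given too. Within date code 3, with 4 rats against 4, the unloaded difference of 9 to 14 d against 6 h to 4 d was positive in 72 of 73 genes with a median of 0.66, and the loaded one in 70 with a median of 0.52. With the date code as a block, 70 of the 73 genes were called in unloaded legs (69 higher, 1 lower) and 65 in loaded legs (64 higher, 1 lower), against 23.4% and 20% of all genes. At 5 to 8 d the block left 61 and 41 genes called, against 8.15% and 9.15% of all genes. With date code 3 alone, which leaves 2 rats of 5 to 8 d, limma called 0 of the 73 at 5 to 8 d in either leg (0.172% and 0% of all genes). At an unadjusted p under 0.05 there were 60 of the 73 in unloaded legs (82.2%, against 15.1% of all genes) and 32 in loaded legs (43.8%, against 12.6%). Date code 3 alone gave 61 called genes in unloaded legs (83.6%, against 9.73% of all genes) and 38 in loaded legs (52.1%, against 4.88%) at 9 to 14 d.

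**Figure D2:**
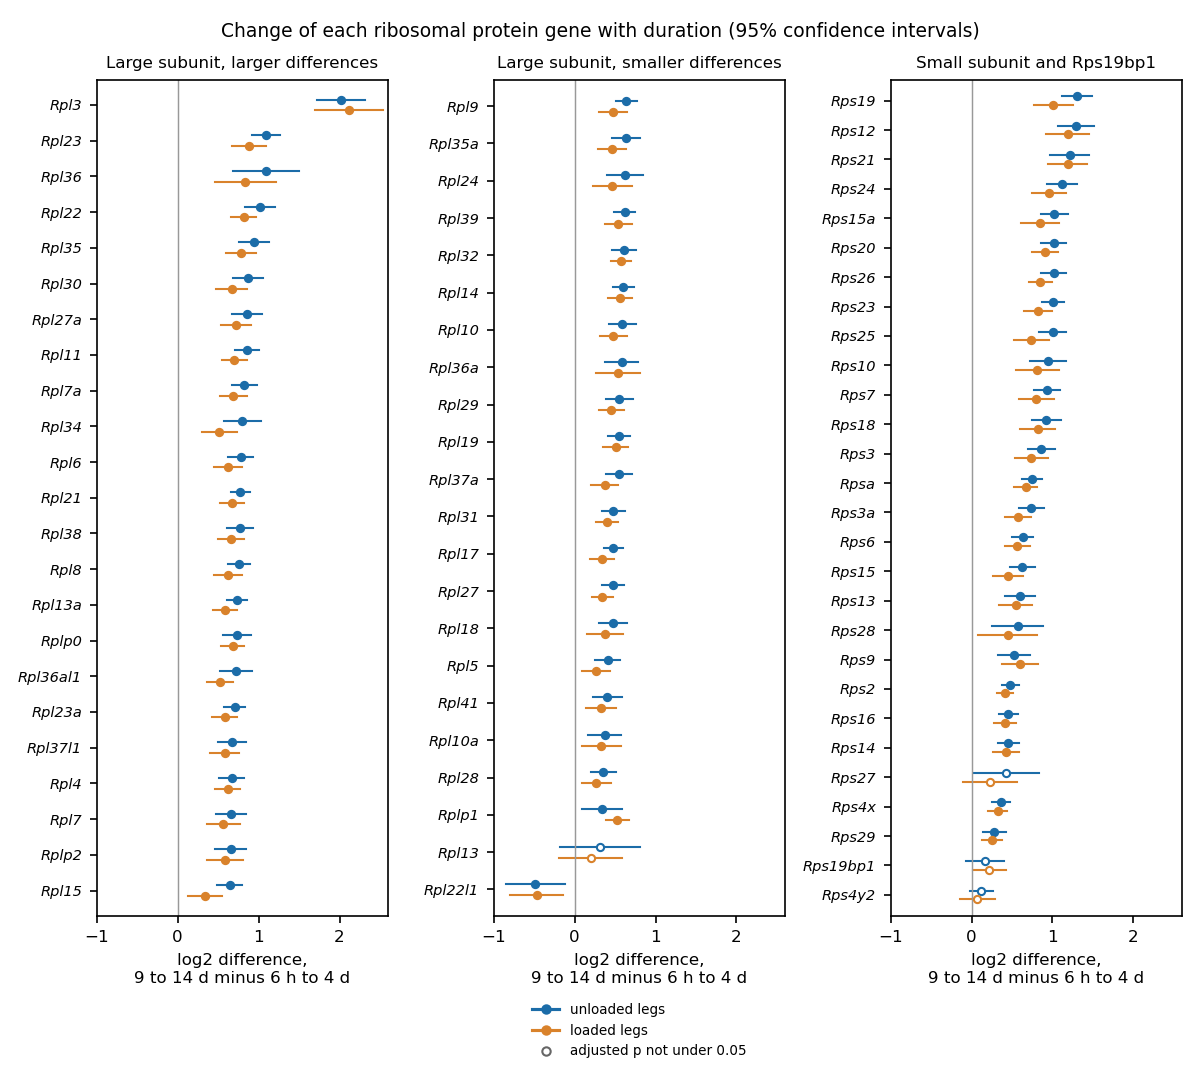
Log2 difference of each of the 73 genes, 9 to 14 d minus 6 h to 4 d, in unloaded (blue) and loaded (orange) legs. Points are limma estimates, lines are 95% confidence intervals, and open points have an adjusted p that is not under 0.05. Rpl3 lies at 2.02 and 2.12 and Rpl22l1 at -0.49 and -0.47.

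Rpl3, a large-subunit protein that reaches toward the peptidyl transferase centre, had the largest rise. In unloaded legs its lowest, median and highest values at 6 h to 4 d were 9.29, 9.56 and 10.17. The 4 rats of 5 to 8 d stood at 11.92 (rat 41), 11.31 (rat 43), 11.92 (rat 53) and 11.38 (rat 55), and those of 9 to 14 d had a lowest, median and highest value of 11.26, 11.78 and 11.90. The later rats were all above the shortest window, with rats 35 and 37 the highest of the early ones, and the later windows overlapped each other. The difference at 9 to 14 d was 2.02 (SE 0.14, 4.06-fold, limma adjusted p = 5.09e-10). In loaded legs 12 of the 13 early rats lay between 8.96 and 9.71, rat 37 lay at 11.13, and the 6 rats of 9 to 14 d lay between 11.16 and 12.01. That difference was 2.12 (SE 0.20, 4.34-fold, adjusted p = 6.05e-08). Within date code 3 the differences were 1.81 and 1.73. Rpl3l, the paralog of Rpl3 found in striated muscle, was not analysed here.

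In the small subunit the largest rises were those of Rps19 and Rps24, both needed to mature the RNA of the small subunit, and of Rps12 and Rps21. Rps19 had a lowest, median and highest value of 9.08, 9.23 and 9.61 in the early unloaded legs, 10.25 (rat 41), 10.39 (rat 43), 10.33 (rat 53) and 10.21 (rat 55) at 5 to 8 d, and 10.37, 10.58 and 10.89 at 9 to 14 d. The early rats did not overlap either later window. Its difference at 9 to 14 d was 1.30 (SE 0.09, 2.47-fold, adjusted p = 5.09e-10), and in loaded legs 1.01 (SE 0.12, adjusted p = 6.76e-07). Rps12 rose from between 8.95 and 9.72 to between 10.30 and 10.63 in unloaded legs, a difference of 1.29 (SE 0.11, adjusted p = 5.46e-09). Rps21 rose from between 9.32 and 10.29 to between 10.82 and 11.04, a difference of 1.21 (SE 0.12, adjusted p = 2.94e-08). For both genes the highest early rats were 37 and 35. Rps24 differed by 1.12 and Rps15a by 1.02, each without overlap in unloaded legs at 9 to 14 d. Many genes of this family have near-identical processed copies in mammalian genomes, and some symbols here carry many probe sets (21 for Rpl21 and 13 for Rpl7a), so a probe set may also read related transcripts and these values are uncertain to that extent.

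Other small-subunit proteins rose less. Rps6, the target of the S6 kinases, had a lowest, median and highest value of 11.74, 11.89 and 12.07 in early unloaded legs and of 12.42, 12.53 and 12.71 at 9 to 14 d, without overlap. Its difference was 0.63 (SE 0.06, adjusted p = 6.69e-08) in unloaded and 0.57 (SE 0.08, adjusted p = 3.86e-06) in loaded legs. Rps3, which lines the entry of the messenger RNA channel, differed by 0.86 and 0.74, Rpsa, also known as the laminin receptor, by 0.74 and 0.67, and Rps4x, the X-linked form of its protein, by 0.37 and 0.32, all called in both legs. Rps29 differed by 0.28 (adjusted p = 0.00204) and 0.25 (adjusted p = 0.00162), the smallest called rise in each leg. Rps4y2 was not called in either leg at 9 to 14 d, at 0.12 (SE 0.07, adjusted p = 0.159) and 0.07 (SE 0.10, adjusted p = 0.582). Its values, 5.82 to 6.92 over all arrays, lay near the array medians. Rps27 was not called either (adjusted p = 0.0733 and 0.258). In some groups its mean lay under 6.07, the smallest of the array medians, which holds for no other gene of the 73, so no fold is given and no size is read from its differences.

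Rpl22 and Rpl22l1 encode paralogous large-subunit proteins, and at 9 to 14 d Rpl22 was called higher and Rpl22l1 lower in both legs. Rpl22 in unloaded legs had a lowest, median and highest value of 9.20, 9.35 and 9.70 at 6 h to 4 d, 10.08 (rat 41), 10.07 (rat 43), 10.51 (rat 53) and 10.53 (rat 55) at 5 to 8 d, and 10.15, 10.40 and 10.65 at 9 to 14 d. The early rats lay below all later ones. The difference at 9 to 14 d was 1.01 (SE 0.09, 2.02-fold, adjusted p = 1.05e-08), and 0.81 (SE 0.08, adjusted p = 3.97e-08) in loaded legs.

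Rpl22l1 in unloaded legs had a lowest, median and highest value of 6.29, 6.61 and 7.38 at 6 h to 4 d and of 6.07, 6.29 and 6.57 at 9 to 14 d. The 4 rats of 5 to 8 d stood at 6.89 (rat 41), 5.98 (rat 43), 7.11 (rat 53) and 6.97 (rat 55). All groups overlapped, and the values lie near the array medians, so the size of the difference is uncertain. It was lower at 9 to 14 d by a difference of -0.49 (SE 0.18, adjusted p = 0.0273) in unloaded and -0.47 (SE 0.16, adjusted p = 0.0176) in loaded legs. The unloaded call was lost without rats 35 and 37 (-0.43, adjusted p = 0.0511), without rat 47 (adjusted p = 0.0627), without rat 51 (adjusted p = 0.0514), without rat 57 (adjusted p = 0.0631) and with date code 3 alone (adjusted p = 0.152). The loaded call was lost without rat 47 (adjusted p = 0.0655), without rat 49 (adjusted p = 0.0577), with array quality weights and with date code 3 alone (adjusted p = 0.0887). At 5 to 8 d it was not called in either leg (-0.03 and -0.02).

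The stalk of the large subunit, which recruits translation factors, is made of Rplp0, Rplp1 and Rplp2. Rplp0 in unloaded legs had a lowest, median and highest value of 11.49, 11.88 and 12.11 at 6 h to 4 d and of 12.38, 12.58 and 12.70 at 9 to 14 d, without overlap, a difference of 0.73 (SE 0.08, adjusted p = 3.17e-07). Rplp2 differed by 0.65 (SE 0.09, adjusted p = 8.3e-06), with overlapping groups. Rplp1 differed less in unloaded legs, at 0.34 (SE 0.12, adjusted p = 0.0262), than in loaded legs, at 0.53 (SE 0.07, adjusted p = 3.33e-06).

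Rplp1 in the early window ran from 10.85 to 11.75 with a median of 11.38 in unloaded legs, and from 10.97 to 11.32 with a median of 11.12 in loaded legs. At 9 to 14 d it ran from 11.63 to 11.92 in unloaded and from 11.46 to 11.83 in loaded legs. The early unloaded legs were spread widest and overlapped the later ones, while the early loaded legs lay below all later loaded legs. The unloaded call of Rplp1 was lost without rat 45 (0.29, adjusted p = 0.0691), with cyclic loess normalisation (0.19, adjusted p = 0.206) and with date code 3 alone (0.45, adjusted p = 0.116). The gap between its leg differences at 9 to 14 d and 6 h to 4 d was 0.19 and was not called (95% interval -0.07 to 0.45, adjusted p = 0.764).

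**Figure D3:**
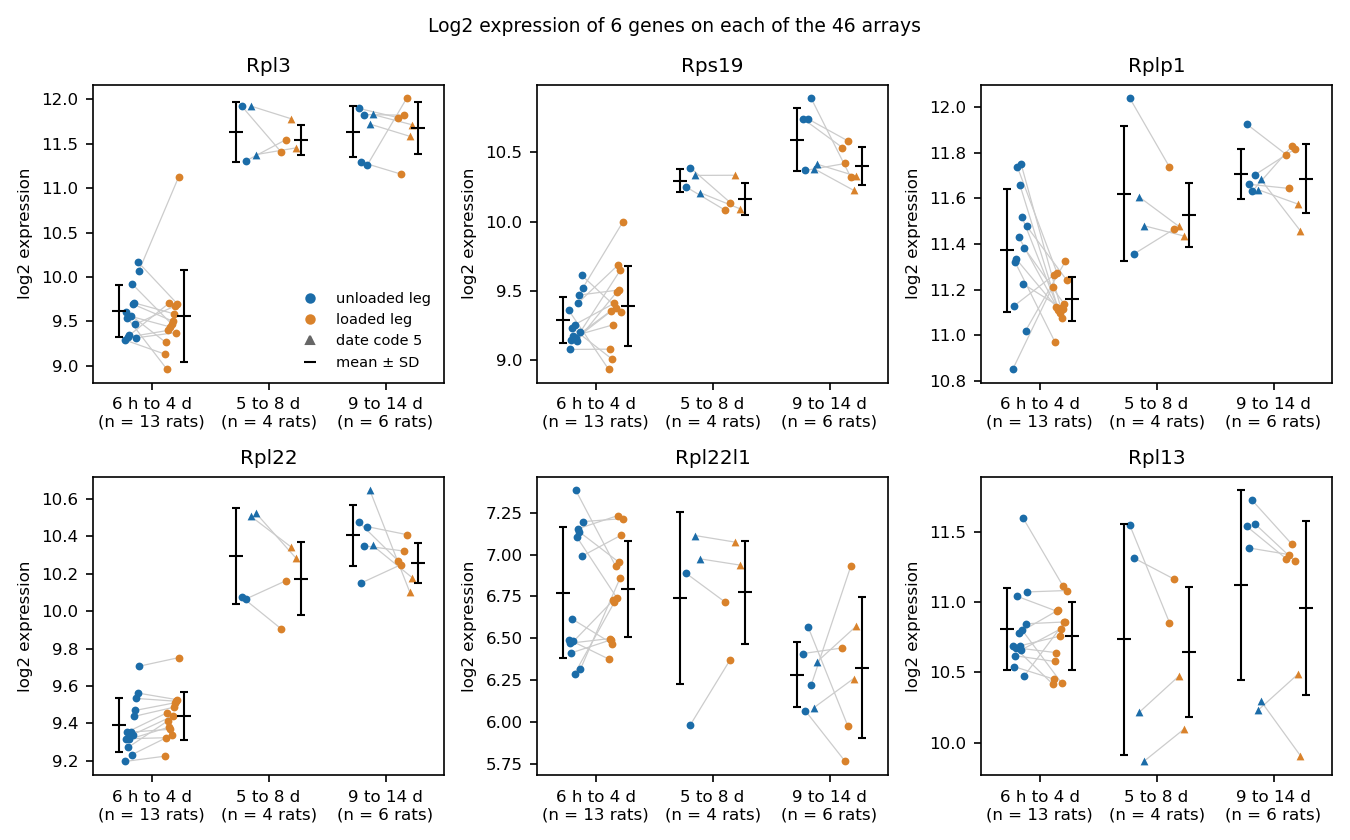
Log2 expression of Rpl3, Rps19, Rplp1, Rpl22, Rpl22l1 and Rpl13 on each of the 46 arrays by duration window, with unloaded legs in blue, loaded legs in orange, triangles for date code 5, grey lines joining the legs of a rat, and black bars for the mean ± SD. The single early Rpl3 point at 11.13 is the loaded leg of rat 37, and the triangles of Rpl13 lie between 9.87 and 10.49.

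Rpl5 and Rpl11 join the 5S ribosomal RNA in a particle that also binds the p53 regulator Mdm2. Rpl11 in unloaded legs had a lowest, median and highest value of 11.75, 11.90 and 12.04 at 6 h to 4 d and of 12.54, 12.82 and 12.90 at 9 to 14 d, without overlap. It differed by 0.85 (SE 0.07, adjusted p = 5.03e-09) in unloaded legs and 0.70 (SE 0.08, adjusted p = 2.92e-07) in loaded legs. Rpl5 differed by 0.41 (SE 0.07, adjusted p = 0.000131) and 0.27 (SE 0.08, adjusted p = 0.011), with overlapping groups in both legs. The loaded call of Rpl5 was lost with cyclic loess normalisation and with the date code as a block or date code 3 alone. Rpl10, one of the last proteins to join the large subunit, differed by 0.59 and 0.48, Rpl39, which lines the exit tunnel, by 0.62 and 0.54, Rpl7 by 0.66 and 0.56, and Rpl36a by 0.58 and 0.54, all called in both legs.

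A few genes followed the date code as well as the window. In the later windows, the difference of date code 5 minus date code 3, averaged over leg and window, had a median of -0.04 over the 73 genes and was larger than 0.5 in size in 5 of them (6.85%, against 12.2% of all genes). These were Rpl13 at -1.13, Rps28 at -0.96, Rps27 (lower in code 5, with no size read), Rps10 at 0.63 and Rpl36 at 1.13. They were chosen after their values were seen, and this difference has no test.

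For Rpl36, later arrays of date code 5 ran from 12.46 to 12.81, later arrays of code 3 from 11.34 to 11.84, and all early arrays from 10.49 to 11.28. Both later sets lay above the early one. Its difference at 9 to 14 d in unloaded legs was 1.09 (SE 0.20, adjusted p = 0.000111) over all rats, 0.76 (adjusted p = 0.00508) within date code 3 and 0.69 (adjusted p = 0.000345) with the code as a block. At 5 to 8 d it was 1.22 (adjusted p = 0.000291) over all rats, 0.51 (adjusted p = 0.135) within code 3 and 0.64 (adjusted p = 0.00591) with the block. The loaded call at 5 to 8 d (0.90, adjusted p = 0.00203) was lost within code 3 (0.23, adjusted p = 0.552) and with the block (0.31, adjusted p = 0.09). All 9 other kept probe sets of Rpl36 showed the same step, from 1.03 to 1.20, but a pair of them carries identical results and is not 2 separate readings.

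For Rpl13, later arrays of date code 5 ran from 9.87 to 10.49, later arrays of code 3 from 10.85 to 11.72, and early arrays from 10.42 to 11.59. Arrays of the 2 codes did not overlap. The difference at 9 to 14 d was not called in unloaded legs, at 0.31 (SE 0.24, adjusted p = 0.287), or in loaded legs, at 0.20 (SE 0.19, adjusted p = 0.411). With the date code as a block the unloaded difference was 0.57 (adjusted p = 0.0154). The other 6 kept probe sets of Rpl13 did not show the step, with date code differences from -0.00338 to 0.05, and their differences at 9 to 14 d ran from 0.82 to 0.95, all called higher. Rpl13 was the 1 gene of 73 whose kept probe sets disagreed by more than 0.5.

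Rps28 lay between 11.55 and 12.04 in the later arrays of date code 5, between 12.60 and 12.99 in those of code 3, and between 11.84 and 12.29 in the early arrays. The early arrays overlapped code 5 and lay below code 3. Its difference was called at 9 to 14 d in unloaded legs (0.57, SE 0.15, adjusted p = 0.00415) and in loaded legs (0.45, SE 0.17, adjusted p = 0.041), and not at 5 to 8 d (0.21 and 0.06). With the code as a block the unloaded difference at 5 to 8 d was called, at 0.60 (adjusted p = 0.000827).

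Other probe sets of the same genes gave the same direction. Of the 73 genes, 52 had more than 1 kept probe set, and all 183 kept probe sets that were not chosen were called higher in unloaded legs at 9 to 14 d. The share of all 14834 kept probe sets called higher was not counted. Of all genes tested, 28.7% were called higher in that comparison. Probe sets of 1 gene read the same RNA and are not independent samples, and some carry identical results, as in Rpl36 and Rps10. Rps19bp1 was not called at 9 to 14 d (0.16 and 0.22, adjusted p = 0.235 and 0.0773), and was called higher in loaded legs at 5 to 8 d (0.34, SE 0.12, adjusted p = 0.0247).

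No ribosomal protein gene differed between the passively loaded and the unloaded leg beyond the threshold. In the comparison of the legs within rats, limma called 0 of 73 genes over all rats (2.9% of all genes), at 6 h to 4 d (0%), at 5 to 8 d (0%) and at 9 to 14 d (0.269%). At an unadjusted p under 0.05 there were 9, 5, 6 and 18 of the 73 genes, which is 12.3%, 6.85%, 8.22% and 24.7%, against 18.6%, 11.6%, 6.93% and 13% of all genes. Array quality weights called 5 genes over all rats (2 higher, 3 lower) and 2 at 5 to 8 d, both lower. These are 6.85% and 2.74% of the 73 genes, below the 9.43% and 12.7% of all genes called with these weights. With date code 3 alone the 18 genes of 9 to 14 d became 3 (4.11%, against 10.9% of all genes). Without rats 17, 19, 21, 23, 27 and 51, whose inferred pairing is uncertain, they became 6 (8.22%, against 13.3% of all genes). With array quality weights they became 31 (42.5%, against 16.9%).

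The median leg difference, loaded minus unloaded, was 0.02 at 6 h to 4 d, with 54 of 73 genes above 0. It was -0.09 at 5 to 8 d, with 65 genes below 0, and -0.10 at 9 to 14 d, with 67 below 0. Over all genes tested the medians were -0.01, 0.00 and -0.01. The value at 6 h to 4 d is small and ran from 0.01 with cyclic loess to 0.07 with date code 3 alone, and leaving out 1 rat moved it to between 0.01 (without rat 37 or 33) and 0.03 (without rat 11 or 13). The value at 5 to 8 d was -0.04 with array quality weights. Both subunits shared the sign, with medians of -0.11 for the large and -0.09 for the small one at 9 to 14 d. The 95% intervals of the 73 genes at 9 to 14 d all lay between -0.47 and 0.36, so a doubling by loading lies outside each of them.

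In each of the 10 rats of 5 to 8 d and 9 to 14 d, the median of the 73 genes was lower in the loaded leg, from -0.19 (rat 57) to -0.01 (rat 47). The 13 early rats lay on both sides of 0, 6 below and 7 above, from -0.10 (rat 11) to 0.18 (rat 37). Over all genes the medians of the 10 later rats lay on both sides of 0, from -0.07 to 0.05. Genes of 1 array are not independent, so these medians are descriptions with no test.

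**Figure D4:**
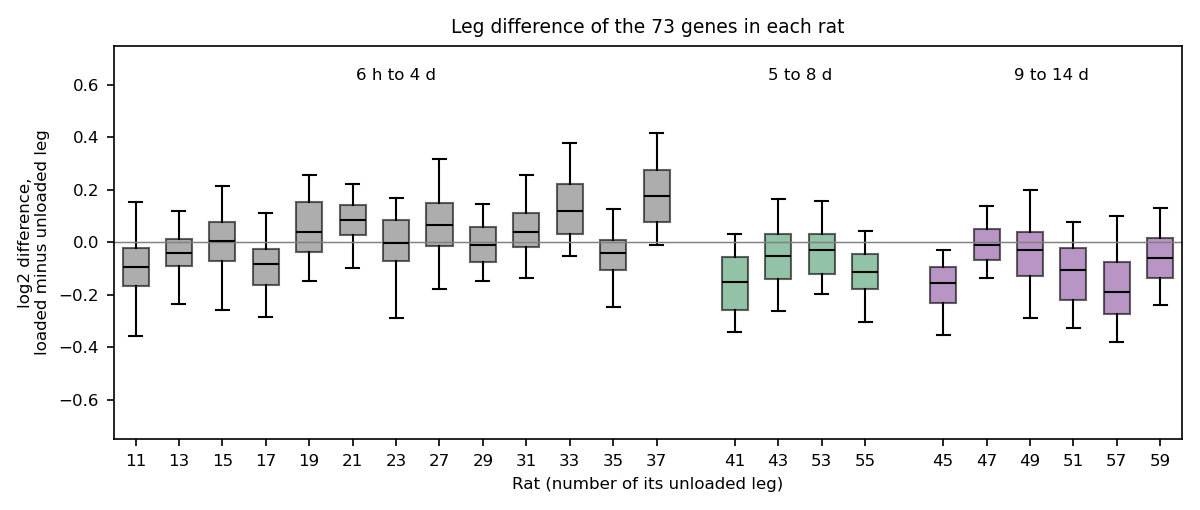
Log2 difference, loaded minus unloaded leg, of the 73 genes in each of the 23 rats, named by the number of the unloaded leg and grouped by duration window. Boxes span the quartiles with the median as a line, and whiskers run from the 5th to the 95th percentile of the genes. The medians of the 10 later rats lie between -0.19 and -0.01.

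The change of the leg difference between windows was tested gene by gene and called none of the 73, at 9 to 14 d or at 5 to 8 d against 6 h to 4 d (0% of all genes each). At an unadjusted p under 0.05 there were 19 and 8 of the 73 genes (26% and 11%, against 7.72% and 6% of all genes), and array quality weights called 4 at 5 to 8 d (5.48%, against 5.66% of all genes with these weights). The unadjusted count at 9 to 14 d fell to 6 without the rats of uncertain pairing (8.22%, against 6.19% of all genes). It was 12 with cyclic loess (16.4%, against 8.16%) and 27 with array quality weights (37%, against 9.45%). The medians were -0.11, with 68 of 73 genes below 0, and -0.10, with 67 below 0, the latter -0.06 with array quality weights and -0.16 with date code 3 alone. The smallest p at 9 to 14 d was that of Rpl34, at -0.28 (95% interval -0.45 to -0.11, adjusted p = 0.389).

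The genes with the smallest p in each leg comparison are given as values. At 9 to 14 d Rps25, which some viral and cellular messengers need to start translation internally, was lower in the loaded leg of 5 of 6 rats, at -0.25 (SE 0.08, adjusted p = 0.142). Rpl34 was at -0.21 (adjusted p = 0.166) and Rpl23 at -0.18 (adjusted p = 0.262), each lower in 5 of 6 rats. At 5 to 8 d Rps26, at the exit of the messenger RNA channel, was lower in 4 of 4 rats at -0.27 (SE 0.07, adjusted p = 0.204), as were Rpl27a at -0.25 and Rpl37a at -0.17. At 6 h to 4 d Rpl36 was higher in the loaded leg of 11 of 13 rats at 0.19 (SE 0.06, adjusted p = 0.187), Rps20 higher in 9 at 0.13 (adjusted p = 0.255), and Rplp1 lower in 10 at -0.21 (adjusted p = 0.258). Over all 23 rats Rps20 was at 0.10 (adjusted p = 0.103), Rps24 at -0.12 (adjusted p = 0.105) and Rps13 at -0.09 (adjusted p = 0.109). Without rat 33, Rps24 was called lower over all rats, at -0.15 (adjusted p = 0.023).

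Other genes of the translation machinery were counted from lists. Of 15 tested genes outside the symbol rule that encode translation factors and related proteins of the oligopyrimidine class, 9 were higher and 1 was lower in unloaded legs at 9 to 14 d, with a median of 0.41, and 10 were higher and 1 lower in loaded legs, with a median of 0.38. Among all genes 28.7% were higher and 16.9% lower in unloaded legs, and 29% and 15.2% in loaded legs. Eef1a1, which brings aminoacyl-tRNA to the ribosome, rose by 1.26 (SE 0.08, adjusted p = 9.95e-11), Eef1b2, its exchange factor, by 1.25 (SE 0.08, adjusted p = 9.95e-11), and Fau, whose product contains ribosomal protein S30, by 0.76 (SE 0.07, adjusted p = 1.1e-08). Naca was the lower one, at -0.42 (adjusted p = 0.00675).

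Genes that assemble ribosomes were counted the same way. Of 82 tested, 44 were higher in unloaded and 52 in loaded legs at 5 to 8 d and none was lower, with medians of 0.40 and 0.42. The shares of all genes higher there were 23.6% and 26.9%. At 9 to 14 d 30 and 27 were higher, with medians of 0.20 and 0.21, and 1 was lower in unloaded legs (Ddx56, -0.41, adjusted p = 0.0258). Of all genes, 28.7% and 29% were higher there, and 16.9% were lower in unloaded legs. Polr1d, a subunit of RNA polymerases I and III, rose by 1.18 (SE 0.12, adjusted p = 6.95e-08) in unloaded legs at 9 to 14 d, Ebna1bp2 by 1.08 (SE 0.17) and Noc3l by 0.99 (SE 0.16), the latter both needed to make the large subunit. Between 5 to 8 d and 9 to 14 d their medians were -0.17 and -0.21 and limma called none of the 82, so the counts of both windows are given side by side only. Of 67 tested proteins of the mitochondrial ribosome, 21 were higher and 10 lower in unloaded legs at 9 to 14 d, with a median of 0.02. This is against 28.7% higher and 16.9% lower of all genes.

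**Figure D5:**
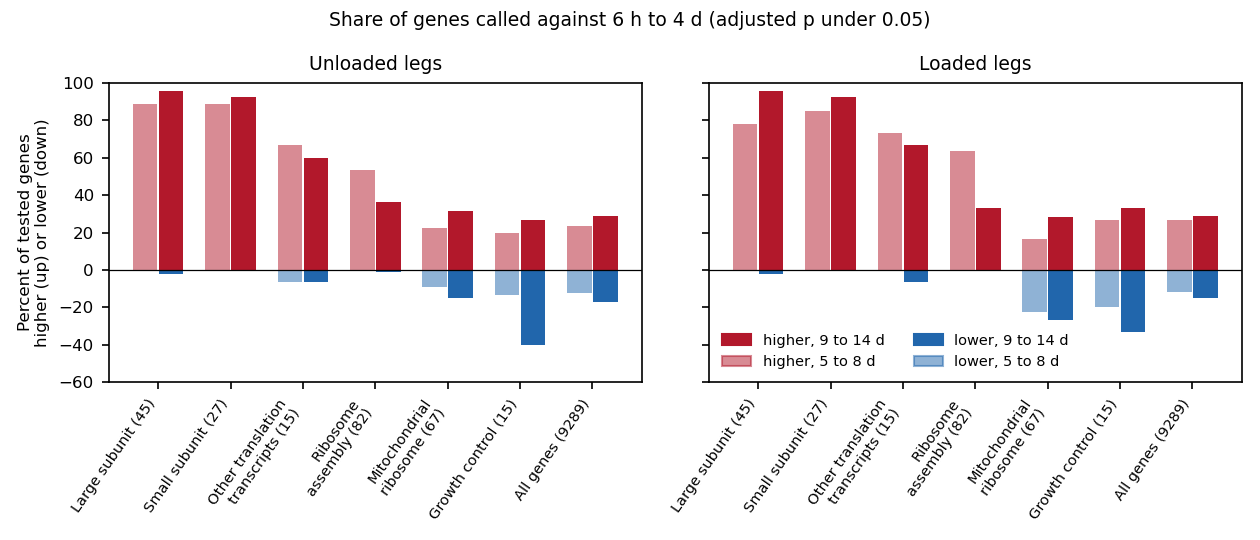
Percent of tested genes called higher (red, upward) or lower (blue, downward) against 6 h to 4 d in unloaded (left) and loaded (right) legs, pale for 5 to 8 d and dark for 9 to 14 d, with the number of genes tested in brackets. In unloaded legs at 9 to 14 d the bars are 95.6% for the large subunit, 92.6% for the small subunit and 28.7% for all genes.

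Genes that control growth and ribosome supply were mixed. Of 15 tested, 4 were higher and 6 lower in unloaded legs at 9 to 14 d, and 5 and 5 in loaded legs. The shares of all genes were 28.7% higher and 16.9% lower in unloaded legs, and 29% and 15.2% in loaded legs. The genes named next were picked for their large called differences and do not stand for the list. Ddit4 and Sesn1, inhibitors of mTOR complex 1, were lower by differences of -1.78 (SE 0.36, adjusted p = 0.000421) and -1.61 (SE 0.24, adjusted p = 1.42e-05) in unloaded legs, and Akt1, a kinase upstream of mTOR, was higher by 0.66 (SE 0.08, adjusted p = 7.15e-07).

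The muscle is bulk tissue, so more transcript per cell and more cells of a type rich in it cannot be told apart. The shares of all genes at 9 to 14 d were 28.7% higher and 16.9% lower in unloaded legs, and 29% and 15.2% in loaded legs. At 5 to 8 d they were 23.6% and 12.3% in unloaded legs, and 26.9% and 12% in loaded legs. Macrophage markers were higher in 9 of 15 tested genes in unloaded legs at 9 to 14 d and in 6 of 15 in loaded legs, and none was lower. Their summed level on the linear scale ran from 3023 to 6649 in early unloaded legs and from 4527 to 21624 at 9 to 14 d, and in loaded legs from 3101 to 7501 and from 3454 to 15360. At 5 to 8 d, where 64 and 59 of the 73 genes were higher, 0 of 15 macrophage markers were higher in either leg by limma and 2 were lower in each, with medians of -0.40 and -0.38. Muscle fibre markers were lower in 7 of 11 genes and higher in 1 in unloaded legs at 9 to 14 d, and lower in 6 and higher in none in loaded legs. At 5 to 8 d 3 of 11 were lower and 1 higher in each leg. The summed fibre level ran from 117390 to 137225 in early unloaded legs, from 93698 to 119770 at 5 to 8 d and from 94289 to 123087 at 9 to 14 d. In loaded legs it ran from 121863 to 137424, from 106449 to 121036 and from 100525 to 120668, so every later loaded leg lay below every early one. Satellite cell markers had 2 of 6 higher and 3 lower, fibroblast markers 0 of 9 higher and 3 lower, and endothelial markers 0 of 6 higher and 3 lower in the same comparison. The part of any of these cells in the rise at 5 to 8 d or 9 to 14 d was not tested.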

How the data were processed

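The authors deposited log2 expression values of 26208 probe sets on 46 arrays, made with RMA (version not stated, per the submitters' processing notes). RMA corrects background, equalises the distributions of the arrays and summarises probes, so a shift of most transcripts would be partly removed. Symbols come from the platform annotation (15088 probe sets with 1 symbol, 323 with several, 10797 without a listed gene). A probe set was kept where it exceeded the array median on 4 or more arrays (14834), and each gene was represented by its kept probe set of highest mean (9289 genes). Tests used lmFit and eBayes of limma 3.58.1 under R 4.3.3, two-sided, with Benjamini-Hochberg adjustment over all 9289 genes and a threshold of 0.05. Legs were compared in 1 fit over 46 arrays with the rat as a block, and windows in the 23 unloaded and the 23 loaded legs separately.

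Legs were paired through adjacent label numbers within a window and date code (a number in the labels assumed to be a date), and a rat carries the number of its unloaded leg. This pairing is inferred. As a check, the legs' deviations from group means had r above 0.1 in 21 of 23 rats (median r = 0.60, lowest -0.35). In 6 rats neither leg was the other's best match.

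The genes, lists and tests were chosen with earlier results of these data known. Named genes are paralogs and genes of special role fixed by name, the 8 largest called differences in each direction and the uncalled genes (where 10 or fewer) between windows, the 3 smallest p between legs, and the 3 largest called differences of each other list. Ddx56, Naca and the genes that followed the date code were named after their values were seen. The fits were tested on simulated data. Start sites are from RefSeq tables of GRCr8.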

Additional observations from a re-analysis of the deposited data

Results flagged for a closer look

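For the 42 named genes that were measured and the median of the 73 genes, 172 sets of 4 to 6 arrays were searched for 1 array far from the others of its group, measured as its gap to the nearest array over the group's whole range. Chance marks about 1 in 20 such sets, and 4 were found. In loaded legs at 5 to 8 d, Rpl15 stood at 6.682 in rat 43, against at most 6.442 in the other rats. Rplp1 stood at 11.737 in rat 41 in the same group, against at most 11.477. In unloaded legs at 9 to 14 d Rplp1 stood at 11.925 in rat 45, against at most 11.703, and in loaded legs at 9 to 14 d Rps4x stood at 13.753 in rat 51, against at most 13.561. All 4 are the highest array of their group.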

How the results depend on the processing

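Of 97 values of single genes, 52 kept their direction and their side of the threshold under every alternative tried, and of 3183 alternatives in all 3097 did. Cyclic loess moved the median of the 73 genes to 0.399 (unloaded, 5 to 8 d), 0.508 (unloaded, 9 to 14 d) and 0.343 (loaded, 5 to 8 d), each against 6 h to 4 d. Date code 3 alone gave 0 called genes at 5 to 8 d in both legs, where 2 rats remain (0.172% and 0% of all genes), with a loaded median of 0.335, and 38 called genes in loaded legs at 9 to 14 d (4.88% of all genes). Array quality weights called 5 genes between legs over all rats, 2 at 5 to 8 d, 4 for the change of the leg difference at 5 to 8 d and 19 between 5 to 8 d and 9 to 14 d in unloaded legs, against 9.43%, 12.7%, 5.66% and 23.8% of all genes, so none of these shares of the 73 genes stands far above that of all genes. The cause of these shifts was not tested.

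Leaving out each rat in turn gave 0 to 1 called genes between legs over all rats (1 without rat 33) and 0 to 1 between 5 to 8 d and 9 to 14 d in unloaded legs (1 without rat 43). It gave 62 to 65 and 68 to 70 called genes in unloaded legs at 5 to 8 d and 9 to 14 d, and 55 to 61 and 66 to 70 in loaded legs. With all rats, the shares of all genes called there were 35.9% and 45.6% in unloaded legs and 39% and 44.2% in loaded legs. The shares of all genes with 1 rat left out are not given here. Without the rat as a replicate block, 0 of the 73 genes were called in each of the 6 leg comparisons, so the block changed no call of these genes. Over all rats, 3 of all 9289 genes were called without the block and 269 with it, so few calls of any gene were made without it. At an unadjusted p under 0.05 there were 3, 4, 1, 1, 2 and 2 of the 73 genes. The shares of all genes were 7.11%, 2.83%, 1.85%, 4.27%, 1.7% and 1.21%.

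The directions that turned were all of genes not called. Rpl13 in unloaded legs at 5 to 8 d turned to 0.644 with the mean of its kept probe sets (called higher), 0.432 with date code 3 alone, 0.403 with the code as a block, and 0.102 and 0.218 without rats 53 and 55, with a range of -0.342 to 0.218 over the rats left out. Rpl22l1 there turned to 0.249 with array weights, 0.0260 without rats 35 and 37, and 0.0187, 0.00303 and 0.22 without rats 23, 37 and 43, with a range of -0.157 to 0.22. Rps28 there turned to -0.133 with array weights and Rps29 to -0.0164 with cyclic loess. In loaded legs at 9 to 14 d, date code 3 alone and the code as a block turned Rps19bp1 to -0.00869 and -0.0257, and Rps27 to -0.0478 and -0.0587, values too near background for their size to be read. Where values lie near the array medians (Rpl22l1, Rps4y2, Rps27, Rpl15 and Rps19bp1), signal over background is not shown and limits their size.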
